A study of Mus musculus with 9 samples.

Results

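Endothelial receptors and junction genes were followed in hematopoietic stem cells (HSCs) of mice that had lost 1 or both copies of Bcl11a, the gene of a zinc finger repressor. The members are 36 listed genes for angiopoietin and VEGF receptors, cell junctions and endothelial adhesion. Each was represented by the probe set that carried its symbol alone and, where several did, by the one with the highest mean over the 9 arrays. In this way 35 members were measured, out of 22180 genes measured in all. The remaining one, Rasip1, had only a probe set that it shared with another gene, and it was not analysed here. The marrow cells came from mice aged 6 to 8 months and had the surface phenotype Sca-1+ Kit+ CD150+ with no CD48, Flt3 or lineage antigen; which arrays held YFP+ and which YFP- cells is not known here. Each of the 3 genotypes had 3 biological replicates with 1 array each. KO mice carried Bcl11a fl/fl with Mx1-Cre, Het mice Bcl11a fl/wt with Mx1-Cre, and WT mice Bcl11a fl/fl without Cre. All had 5 doses of poly(I:C), which induces interferon and through it Mx1-Cre, in blood cells and in other interferon-responsive cells, endothelium among them. The WT group therefore lacks Cre as well as the deletion, and poly(I:C) itself was given to every group.

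Endothelium and blood stem cells arise from a common embryonic source, and adult HSCs keep part of an endothelial surface set. TEK and TIE1 are receptor kinases of the angiopoietin system, which in marrow is known for holding HSCs in quiescence. VEGF receptors drive vessel growth and are read mainly in endothelium of adult marrow. PECAM1, ESAM, JAM proteins and VE-cadherin hold endothelial cells together, while ICAM, VCAM and selectin proteins catch leukocytes on the vessel wall. From such general knowledge, with earlier results of these data known, 18 members were taken as shared between HSCs and endothelium and 18 as mainly endothelial, of which 17 were measured.

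Values are log2 expression, and differences are log2 differences of group means. A level scale came from 37 genes of liver, eye, muscle, brain, germ cells and other tissues that were taken as foreign to marrow. Their 333 readings had a median of 3.75 and a 95th percentile of 4.99, and the latter is called the background limit below. Probe sets differ in how well they hybridise, so a reading under this limit does not show that a transcript was absent. Of the 37 foreign genes themselves, 5 passed the limit on at least 1 array and 1 of them, Mbp (5.03 to 5.95), on all 9. A limit set without Mbp would be lower. Readings just under 4.99, such as Flt4 on WT replicate 2 (4.93) and Kdr on KO replicate 2 (4.90), could then pass, so the counts below hold for this limit only. Of the 18 shared members, 16 passed the limit on at least 1 array and 6 (Angpt1, Emcn, Eng, Cd93, Egfl7 and Tjp1) on all 9. Of the 17 mainly endothelial members, 14 stayed under it on every array, with readings of 2.73 to 4.38 in KO, 2.62 to 4.64 in Het and 2.93 to 4.93 in WT cells. These counts describe levels and are no test of the division. Vcam1 and Podxl, listed as shared, passed the limit on no array, while Arhgap29, Ackr1 and Kdr, listed as mainly endothelial, passed it on 6, 3 and 1 arrays. Single readings over the limit numbered 43 of 54 in KO, 42 in Het and 34 in WT cells for the shared members, and 7 of 51 in KO, 3 in Het and 0 in WT cells for the mainly endothelial ones. They count the 3 readings of a gene singly, and the share over all genes was not counted. The limit is 1 value for all arrays. The mean of the foreign genes was 3.48 to 3.79 on KO, 3.56 to 3.85 on Het and 3.64 to 3.92 on WT arrays. These counts are therefore no comparison of the genotypes.

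**Figure D1:**
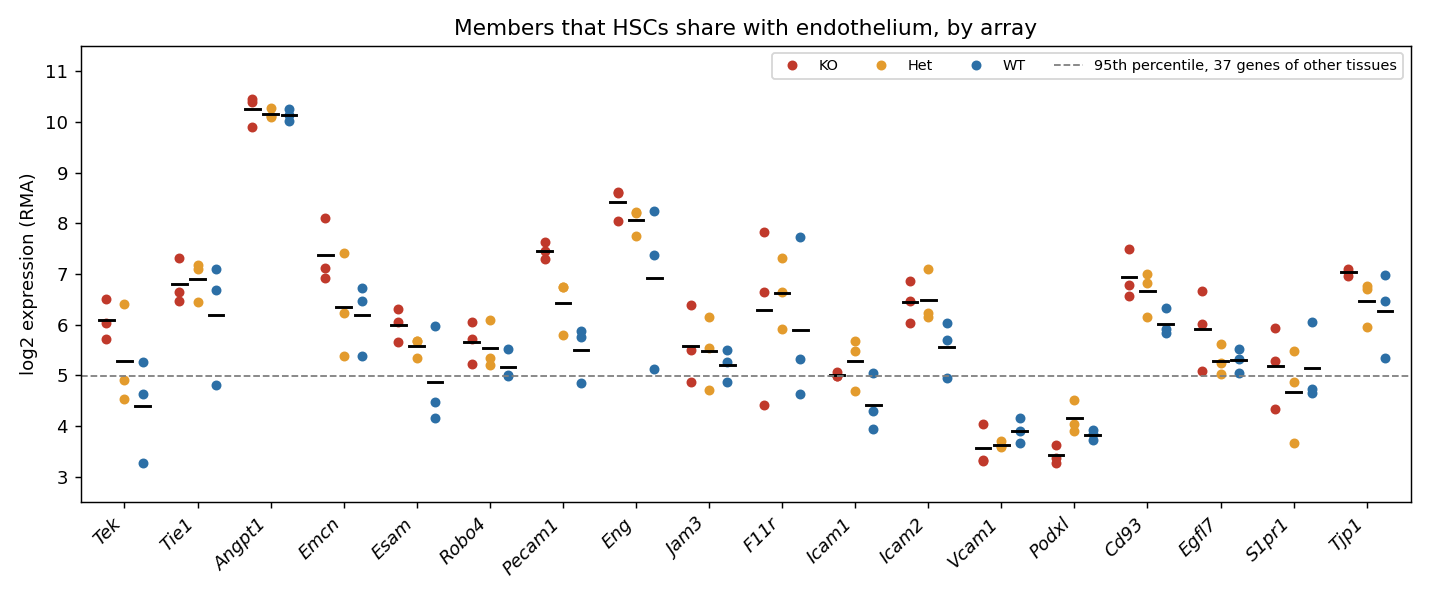
Log2 expression (vertical axis) of the 18 members that HSCs share with endothelium, 1 dot per array, with KO, Het and WT side by side and group means as black bars (n = 3 each). The dashed line is the background limit of 4.99. Pecam1 and Tek have all 3 KO dots above all 3 WT dots, while Vcam1 and Podxl lie under the line throughout.

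**Figure D2:**
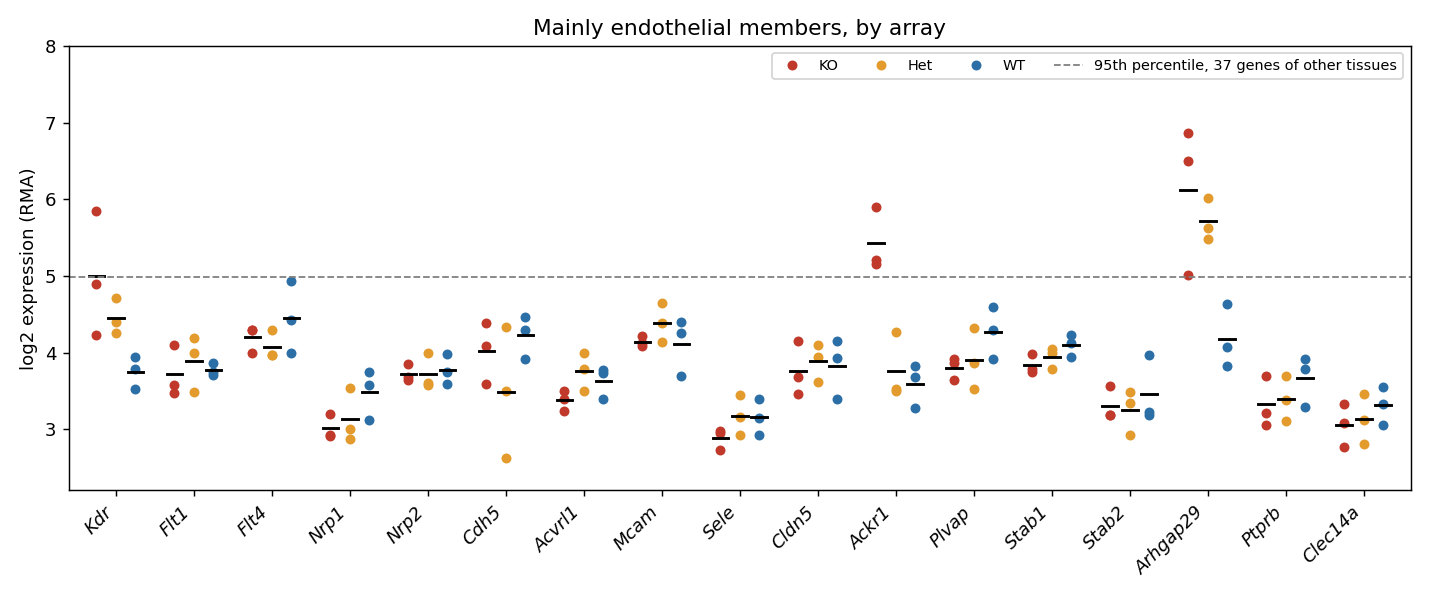
Log2 expression (vertical axis) of the 17 measured mainly endothelial members, 1 dot per array, drawn as in the plot of the shared members. Arhgap29, Ackr1 and Kdr are the 3 that cross the background limit of 4.99 (dashed), and none of the 17 does so in WT cells.

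Arrays stood apart in ways that touch these readings. The interquartile range of an array lay between 2.22 and 2.83, narrowest on WT replicate 1 (2.22) and widest on KO replicates 1 and 2 (2.83 and 2.80). Sex, read from X- and Y-linked transcripts, was not balanced: 1 of 3 KO arrays, 1 of 3 Het arrays and 2 of 3 WT arrays were female. Bcl11a itself read 7.82, 7.90 and 8.66 on the KO arrays, 8.34, 8.37 and 8.89 on the Het arrays and 8.73, 8.81 and 8.38 on the WT arrays. Where its probes lie relative to the deleted exons is unknown, so these readings do not check the deletion, and the highest KO reading belongs to the array labelled KO replicate 3. Of the sort markers, Kit read 8.75 to 10.01 over the 9 arrays, and Cd48 and Flt3 read 3.55 to 5.36. Slamf1, the gene of CD150, read 7.94, 6.53 and 6.43 in KO, 6.61, 7.32 and 7.34 in Het and 4.64, 4.67 and 6.71 in WT cells, so that 2 WT arrays lay under the background limit. It differed by 1.63 in KO minus WT and 1.75 in Het minus WT (limma adjusted p = 0.543 and 0.889), and its part in the differences of the shared members was not tested. Ly6a, the gene of Sca-1, was not analysed here. Across probe sets, pairs of replicates had Pearson's r of 0.862 to 0.932.

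In KO cells no member passed the test against WT over all genes (limma, adjusted p under 0.05), where 7 of 16636 genes tested, or 0.0421%, did. The 32 members that passed the filter on low values were tested. At an unadjusted p under 0.05, 9 members were higher in KO cells and 0 lower, while 5.40% of all genes were higher and 2.81% lower by that rule. All 3 KO arrays read above all 3 WT arrays for 7 members and below them for 2 (Podxl and Plvap, both under the background limit on every array), against 6.51% and 7.32% of all genes. Of the 18 shared members, 16 had a higher mean in KO than in WT cells, with a median difference of 0.62, where 45.4% of all genes were higher and their median was -0.04. Of the 14 tested mainly endothelial members, 4 were higher and 10 lower, with a median of -0.11. The sign of that last median turned when arrays were quantile normalized again (0.03) or their interquartile range entered the fit (0.02). By sex, with 1 female KO array against 2 WT and 2 male KO arrays against 1 WT, the median of the shared members was 0.59 in females and 0.58 in males. That of the mainly endothelial members was 0.14 in females and -0.31 in males, beside 0.00 and -0.08 over all genes.

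**Figure D3:**
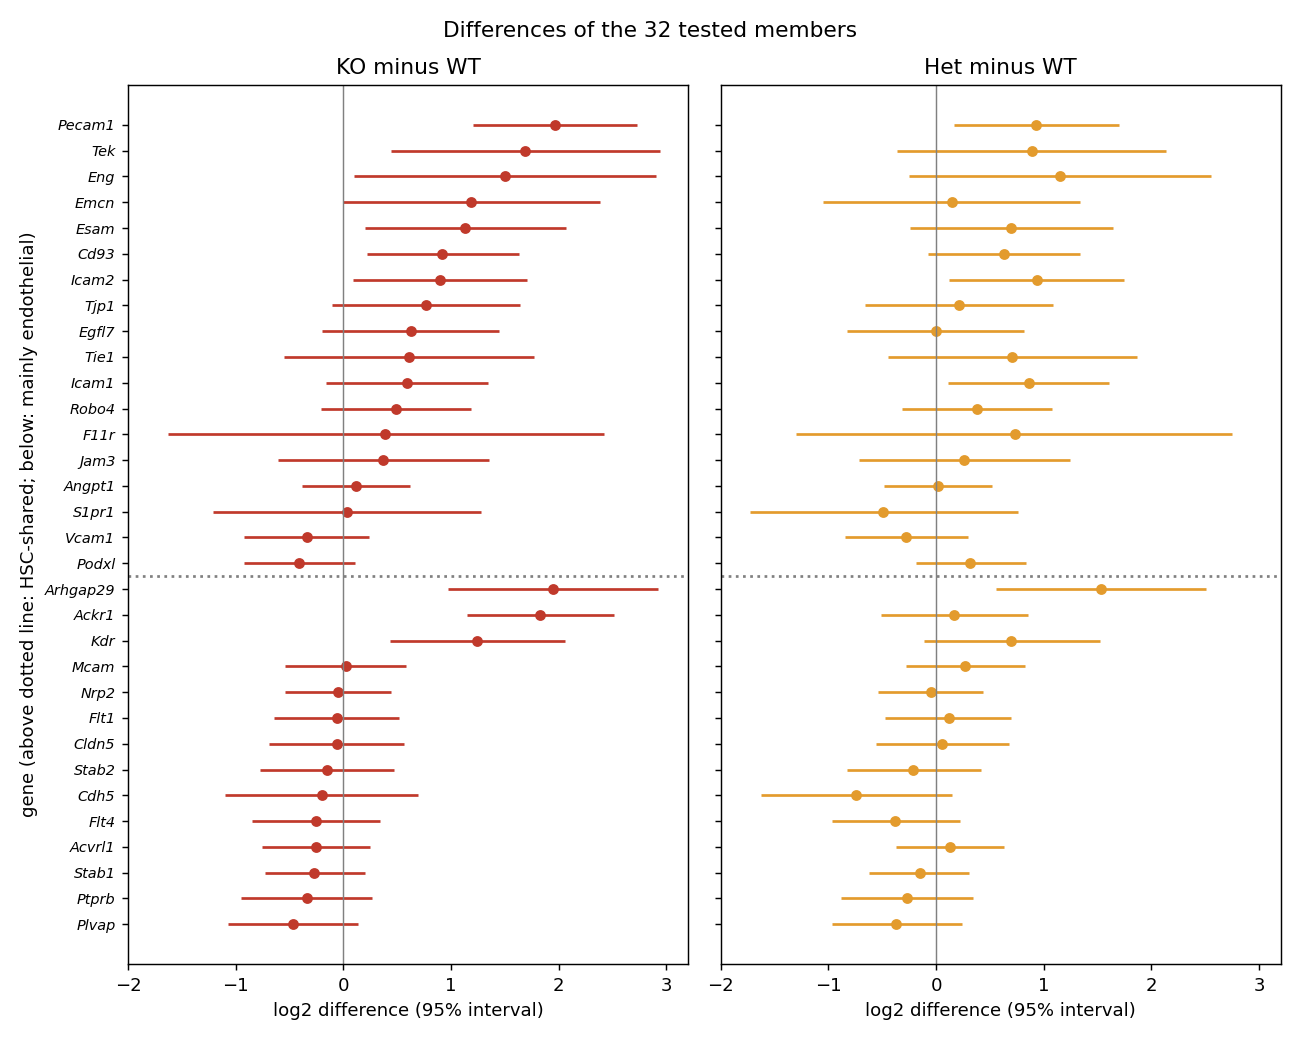
Log2 differences with their 95% confidence intervals from the fit (horizontal axes) for the 32 tested members, KO minus WT on the left and Het minus WT on the right. In KO cells Pecam1 (1.97), Arhgap29 (1.95) and Ackr1 (1.83) lie farthest from 0, while in Het cells Ackr1 (0.17) lies near it. No interval is adjusted for the number of genes, and no member passed the adjusted test.

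Among the angiopoietin genes, Tek, the receptor of the angiopoietins, read 6.50, 5.72 and 6.03 in KO, 4.91, 4.54 and 6.41 in Het and 3.28, 4.64 and 5.26 in WT cells. The KO and WT arrays did not overlap, and the Het arrays spread over both ranges. KO cells differed from WT by 1.69 (SE 0.563, 95% interval 0.44 to 2.94, limma adjusted p = 0.514). It was 1.76 within female and 1.47 within male mice, and 1.01 with a term for array width. Tie1, its co-receptor, read 6.46, 7.32 and 6.64 in KO, 6.45, 7.18 and 7.10 in Het and 4.82, 7.09 and 6.68 in WT cells. WT replicate 1 stood below the other 8 arrays, which overlapped. The difference of 0.61 between KO and WT cells (SE 0.523, limma adjusted p = 0.746) became -0.08 without that array. Angpt1, the TEK ligand that marrow HSCs themselves make, read 10.46, 10.39 and 9.91 in KO, 10.12, 10.09 and 10.27 in Het and 10.13, 10.26 and 10.02 in WT cells. The groups overlapped, and the interval of the KO minus WT difference (0.12) ran from -0.38 to 0.62. A second Angpt1 probe set was dimmer, at 4.20 to 6.05 in KO, 3.76 to 5.14 in Het and 4.18 to 6.88 in WT cells, and its groups overlapped too.

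The VEGF receptors split. Kdr, the main signalling receptor for VEGF-A in endothelium, read 5.85, 4.90 and 4.23 in KO, 4.25, 4.40 and 4.71 in Het and 3.53, 3.94 and 3.78 in WT cells. Every KO and every Het array lay above every WT array, but all WT and Het readings and 2 of the 3 KO readings were under the background limit. In KO minus WT it differed by 1.24 (SE 0.367, interval 0.43 to 2.06, limma adjusted p = 0.438), and it was 0.81 without KO replicate 1. The other VEGF receptors stayed low in every group. Flt1, a receptor that also acts as a VEGF trap, read 3.47 to 4.10 in KO, 3.48 to 4.19 in Het and 3.71 to 3.86 in WT cells. Flt4, the receptor of lymphatic growth, averaged 4.20 ± 0.173 in KO, 4.08 ± 0.185 in Het and 4.45 ± 0.465 in WT cells (SD, n = 3 each). The neuropilins, co-receptors for VEGF and semaphorins, were flat, with Nrp2 at 3.64 to 3.85 in KO, 3.58 to 3.99 in Het and 3.59 to 3.98 in WT cells. Nrp1 averaged 3.01 in KO, 3.14 in Het and 3.48 in WT cells and lay under the filter, so it was not tested.

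Eng, the TGF-beta co-receptor endoglin that marks HSCs as well as vessels, read 8.59, 8.61 and 8.05 in KO, 7.75, 8.22 and 8.21 in Het and 5.12, 7.37 and 8.25 in WT cells. The WT arrays spread widely, and the highest of them lay above the lowest KO array. KO cells differed from WT by 1.50 (SE 0.630, limma adjusted p = 0.583). Dropping WT replicate 1 gave 0.61, and a term for array width gave 0.81. Acvrl1, the ALK1 receptor that pairs with endoglin in endothelium, read 3.24, 3.50 and 3.40 in KO, 3.79, 4.0 and 3.50 in Het and 3.73, 3.77 and 3.40 in WT cells, all under the background limit and overlapping.

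Of the junction genes, Pecam1 differed most. PECAM1 (CD31) is an adhesion molecule of endothelial junctions that is also found on leukocytes and HSCs. It read 7.30, 7.63 and 7.45 in KO, 5.80, 6.74 and 6.74 in Het and 4.85, 5.87 and 5.76 in WT cells. The KO arrays lay above every Het and every WT array, and the lowest Het array lay inside the WT range. KO exceeded WT by 1.97, or 3.91-fold (SE 0.344, interval 1.20 to 2.73, limma adjusted p = 0.133). Under the alternatives tried it stayed between 1.65 and 2.16, with adjusted p of 0.0700 to 0.409. Within female mice it was 2.15 and within male mice 1.59.

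Esam, a junction molecule used as an HSC marker, read 5.65, 6.31 and 6.05 in KO, 5.35, 5.68 and 5.68 in Het and 4.16, 5.98 and 4.47 in WT cells. WT replicate 2 overlapped the KO arrays, the KO minus WT difference was 1.13 (SE 0.422, limma adjusted p = 0.560), and within sexes it was 1.74 (female) and 0.00 (male). Without both WT replicate 1 and KO replicate 3 it was 0.75. Robo4, a Slit receptor family member that keeps vessels tight and helps HSCs lodge in marrow, read 5.23 to 6.05 in KO, 5.21 to 6.09 in Het and 4.99 to 5.52 in WT cells, with overlap. Tjp1, the tight junction scaffold ZO-1, read 6.97, 7.03 and 7.09 in KO, 6.77, 6.70 and 5.96 in Het and 6.46, 5.34 and 6.99 in WT cells. Its KO arrays lay close together (SD 0.0600) and above every Het array, while WT replicate 3 reached into their range.

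Jam3 and F11r, junctional adhesion molecules, were uneven within genotypes. Jam3 read 6.39, 5.50 and 4.86 in KO, 5.55, 4.72 and 6.16 in Het and 5.51, 4.86 and 5.27 in WT cells. F11r read 7.83, 6.64 and 4.41 in KO, 7.32, 5.92 and 6.64 in Het and 5.33, 7.73 and 4.64 in WT cells, so that its interval for KO minus WT ran from -1.63 to 2.42. At this spread no difference was detectable for either. Cdh5, VE-cadherin, the defining adherens junction protein of endothelium, read 3.59, 4.09 and 4.38 in KO, 4.33, 2.62 and 3.50 in Het and 3.91, 4.30 and 4.46 in WT cells. Cldn5, the claudin of endothelial tight junctions, read 3.46 to 4.15 in KO, 3.62 to 4.10 in Het and 3.40 to 4.15 in WT cells. Both stayed under the background limit on all 9 arrays.

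The adhesion genes fell into low and measurable sets. Icam2, a constitutive ligand of leukocyte integrins, read 6.87, 6.03 and 6.46 in KO, 6.15, 6.23 and 7.09 in Het and 6.03, 4.94 and 5.69 in WT cells. Every Het array lay above every WT array, and the lowest KO array and the highest WT array both read 6.03. The differences were 0.90 for KO minus WT and 0.94 for Het minus WT (limma adjusted p = 0.574 and 0.970), and the KO value was 0.59 without WT replicate 2. Icam1, its cytokine-induced relative, read 4.98, 5.07 and 4.99 in KO, 5.48, 4.69 and 5.68 in Het and 4.29, 5.04 and 3.94 in WT cells, close to the background limit. Vcam1, a ligand of integrin alpha 4, read 3.32, 3.33 and 4.05 in KO, 3.71, 3.58 and 3.60 in Het and 3.90, 3.66 and 4.16 in WT cells. Sele, E-selectin of inflamed endothelium, averaged 2.89 in KO, 3.18 in Het and 3.15 in WT cells and was under the filter. Mcam, a melanoma and endothelial adhesion molecule, averaged 4.14 ± 0.0666 in KO, 4.39 ± 0.250 in Het and 4.12 ± 0.376 in WT cells (SD, n = 3 each).

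Emcn, endomucin, a sialomucin of venous endothelium and of HSCs, read 8.11, 6.92 and 7.12 in KO, 5.38, 6.23 and 7.41 in Het and 5.39, 6.72 and 6.47 in WT cells. The KO arrays lay above all WT arrays, and Het replicate 3 lay among the KO arrays. KO differed from WT by 1.19 (SE 0.537, limma adjusted p = 0.610), by 0.79 with WT replicate 1 left out, and by 0.68 with a term for array width. Podxl, a related sialomucin, read 3.37, 3.62 and 3.28 in KO, 4.04, 4.51 and 3.91 in Het and 3.85, 3.92 and 3.72 in WT cells. Its KO arrays lay below all Het and all WT arrays, with differences of -0.73 from Het and -0.41 from WT (limma adjusted p = 0.998 and 0.660), all under the background limit.

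Ackr1, the atypical chemokine receptor of venules and red cells also known as the Duffy antigen receptor, separated KO cells from both other genotypes. It read 5.21, 5.90 and 5.16 in KO, 3.52, 3.50 and 4.27 in Het and 3.82, 3.68 and 3.28 in WT cells. All 3 KO arrays were above the background limit and all 6 others below it, so the differences are those of the readings and no fold is given. The KO minus WT difference was 1.83 (SE 0.306, interval 1.15 to 2.51, limma adjusted p = 0.101), and the KO minus Het difference 1.66 (SE 0.306, interval 0.98 to 2.34, limma adjusted p = 0.434). Het minus WT was 0.17, with an interval of -0.51 to 0.85. The KO minus WT value was 1.61 within female and 1.87 within male mice, and it stayed between 1.59 and 2.07 under the alternatives tried, with adjusted p of 0.0422 to 0.367. It passed the threshold with array weights.

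Arhgap29, a protein that works with Rasip1 to open vessel lumens, read 6.50, 6.86 and 5.01 in KO, 5.48, 5.63 and 6.02 in Het and 4.07, 3.83 and 4.63 in WT cells. Both Cre-carrying genotypes lay wholly above WT, and their own ranges overlapped. The differences were 1.95 for KO minus WT (SE 0.439, limma adjusted p = 0.259) and 1.53 for Het minus WT (SE 0.439, interval 0.56 to 2.51, limma adjusted p = 0.758). KO minus Het was 0.41, with an interval of -0.56 to 1.39. The array labelled KO replicate 3 read lowest of the KO arrays: within female mice KO minus WT was 0.66 and within male mice 2.85, and without that array the difference was 2.50 and passed (limma adjusted p = 0.0352, range over the alternatives 0.0352 to 0.598). Without it the KO minus WT differences of Pecam1, Ackr1, Tek and Kdr were 1.97, 1.96, 1.72 and 1.62.

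Cd93, a lectin-like receptor of endothelium and early progenitors, read 6.57, 7.49 and 6.78 in KO, 6.15, 6.82 and 7.0 in Het and 5.83, 5.92 and 6.32 in WT cells. KO and WT arrays did not overlap (0.92, SE 0.318, limma adjusted p = 0.540), and it was 0.71 within female and 1.11 within male mice. Egfl7, a secreted protein that guides vessel formation, read 6.01, 6.67 and 5.09 in KO, 5.02 to 5.62 in Het and 5.04 to 5.52 in WT cells, with overlap. S1pr1, the sphingosine 1-phosphate receptor that guides cells out of marrow, read 5.94, 4.33 and 5.29 in KO, 4.86, 3.66 and 5.48 in Het and 4.66, 6.06 and 4.74 in WT cells, and no difference was detectable at that spread. The remaining members are endothelial and low. They are Plvap, which forms the diaphragms of fenestrae, the sinusoidal scavenger receptors Stab1 and Stab2, the phosphatase Ptprb that restrains TEK, and the lectin Clec14a. Plvap averaged 3.80 ± 0.144 in KO, 3.90 ± 0.397 in Het and 4.27 ± 0.340 in WT cells (SD, n = 3 each). Every KO array lay below every WT array, but barely: the highest KO reading was 3.91 and the lowest WT reading 3.92. Stab1 averaged 3.83 ± 0.129 in KO, 3.95 ± 0.138 in Het and 4.10 ± 0.147 in WT cells (SD, n = 3 each). Clec14a averaged 3.06 in KO, 3.13 in Het and 3.31 in WT cells and was not tested.

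Genes taken as foreign to marrow also read lower in KO cells. Of 28 tested genes foreign to marrow, 25 had a lower mean in KO than in WT cells, with a median difference of -0.18. On single arrays the mean of that list was 3.48, 3.55 and 3.79 in KO, 3.81, 3.85 and 3.56 in Het and 3.92, 3.89 and 3.64 in WT cells, and it was lowest on the 3 arrays with the widest interquartile ranges (KO replicates 1 and 2 and Het replicate 3). The part of array width in the differences of single members was not tested beyond the fits with that term given above.

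Start regions are shown for the 5 members, of 9 with no overlap between KO and WT arrays, that have a window, because Bcl11a protein is known to bind TGACCA in globin promoters. They come from RefSeq promoter windows on GRCm38.p6, which hold 22 of the 35 measured members, and the 250 bases before each gene's start are printed 5′ to 3′ along the gene. Flt1, a VEGF receptor whose groups overlapped, is set beside them. Capitals mark TGACCA, the ETS-type core AGGAAG, the GATA-type core AGATAA and the E-box CATCTG on either strand; none of the matches overlaps another.
Ackr1 (chr1:173333504-173333753, minus strand): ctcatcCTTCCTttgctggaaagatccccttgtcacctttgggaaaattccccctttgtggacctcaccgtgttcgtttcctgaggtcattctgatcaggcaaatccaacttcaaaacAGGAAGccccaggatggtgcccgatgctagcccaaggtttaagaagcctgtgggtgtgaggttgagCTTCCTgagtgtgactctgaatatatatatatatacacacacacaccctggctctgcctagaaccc
Arhgap29 (chr3:121952979-121953228, plus strand): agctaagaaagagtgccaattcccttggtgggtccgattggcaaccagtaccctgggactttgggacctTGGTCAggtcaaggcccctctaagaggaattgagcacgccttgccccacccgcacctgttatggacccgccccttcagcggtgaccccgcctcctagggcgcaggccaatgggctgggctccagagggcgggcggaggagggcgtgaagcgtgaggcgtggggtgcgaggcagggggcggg
Kdr (chr5:75978456-75978705, minus strand): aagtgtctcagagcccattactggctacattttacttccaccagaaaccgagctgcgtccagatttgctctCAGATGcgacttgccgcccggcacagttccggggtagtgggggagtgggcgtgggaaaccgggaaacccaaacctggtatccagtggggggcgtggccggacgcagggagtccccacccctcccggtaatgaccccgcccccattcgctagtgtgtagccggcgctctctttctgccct
Tek (chr4:94739039-94739288, plus strand): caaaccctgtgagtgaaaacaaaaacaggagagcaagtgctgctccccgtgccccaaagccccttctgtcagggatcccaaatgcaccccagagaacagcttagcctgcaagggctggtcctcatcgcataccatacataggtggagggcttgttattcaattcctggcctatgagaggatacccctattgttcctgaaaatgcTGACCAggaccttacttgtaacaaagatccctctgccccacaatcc
Emcn (chr3:137340828-137341077, plus strand): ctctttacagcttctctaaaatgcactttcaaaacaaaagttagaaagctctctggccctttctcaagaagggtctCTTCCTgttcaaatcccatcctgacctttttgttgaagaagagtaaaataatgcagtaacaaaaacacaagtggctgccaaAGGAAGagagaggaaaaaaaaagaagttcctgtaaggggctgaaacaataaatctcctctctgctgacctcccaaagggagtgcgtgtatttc
Flt1 (chr5:147726012-147726261, minus strand): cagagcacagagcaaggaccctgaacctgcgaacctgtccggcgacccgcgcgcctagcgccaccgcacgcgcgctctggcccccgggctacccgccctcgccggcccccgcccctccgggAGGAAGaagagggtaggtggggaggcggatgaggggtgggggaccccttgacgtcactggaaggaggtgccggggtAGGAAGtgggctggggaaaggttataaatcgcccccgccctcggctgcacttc
TGACCA was found 181 bases before the Arhgap29 start, on the opposite strand, and 46 bases before the Tek start. Ackr1 held 3 AGGAAG cores, Emcn 2 and Flt1 2, and Kdr held 1 CATCTG. The motif TGACCA lay in 3 of the 22 member windows (Arhgap29, Egfl7 and Tek), against 11.5% of 27025 windows of all genes. AGGAAG lay in 11 of the 22, against 29.2% of all, CATCTG in 4, against 14.5%, and AGATAA in 0, against 10.3%. Of the windows with AGGAAG, 5 belonged to 9 shared members and 6 to 13 mainly endothelial ones. These are letter matches in short windows and say nothing of binding.

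In Het cells, which lost 1 allele, no member passed against WT, and 0 of 16636 genes did (0%). At an unadjusted p under 0.05, 4 members were higher (Arhgap29, Pecam1, Icam1 and Icam2) and 0 lower, where 3.12% of all genes were higher and 1.77% lower, 4.89% together. All 3 Het arrays lay above all WT arrays for Arhgap29, Icam2 and Kdr and below them for 0 members, against 4.51% and 3.90% of all genes. Pecam1 differed by 0.93 (SE 0.344, limma adjusted p = 0.967), and by 0.61 without WT replicate 1. Icam1 differed by 0.86 (SE 0.336, limma adjusted p = 0.970), Kdr by 0.70 (SE 0.367, limma adjusted p = 0.992) and Emcn by 0.15, with an interval of -1.05 to 1.34. Several Het differences leaned on WT replicate 1: without it Eng differed by 0.25 and not 1.15, Tek by 0.34 and not 0.89, Esam by 0.35 and not 0.70, and Tie1 by 0.03 and not 0.71. The median over shared members was 0.50, and 15 of 18 were higher, against 48.3% of all genes. Among females it was 1.08, on 1 Het and 2 WT arrays, and among males 0.07, on 2 Het and 1 WT arrays, where all genes had medians of -0.01 and -0.02. The mainly endothelial members had a median of 0.01, with 7 higher and 7 lower. The lowest of them was Cdh5, at -0.74 (SE 0.403, limma adjusted p = 0.992), and it was -0.31 without Het replicate 2, which read 2.62.

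The comparison of KO with Het cells, which both carry Cre, called no member and 0 genes (0%). Unadjusted, Ackr1 and Pecam1 were higher and Podxl lower at a p under 0.05, where 2.61% of all genes were higher and 1.95% lower. The KO arrays lay above all Het arrays for Ackr1, Pecam1 and Tjp1 and below them for Podxl, against 4.42% and 5.40% of all genes. Pecam1 differed by 1.03 (SE 0.344, interval 0.27 to 1.80, limma adjusted p = 0.998), by 0.71 within female and 1.20 within male mice. Of the shared members 12 of 18 were higher in KO cells and of the mainly endothelial ones 7 of 14, against 47.0% of all genes. Their medians were 0.20 and -0.03; by sex the shared members had -0.25 in females (1 array each) and 0.51 in males (2 each). In all, 2 of the 3 comparisons share their KO arrays, 2 their Het arrays and 2 their WT arrays. Group means stood in the order KO above Het above WT for 10 of 18 shared members, among them Pecam1, Tek, Eng, Esam and Cd93, and for 3 of 14 tested endothelial ones, Kdr, Ackr1 and Arhgap29. Over all genes that order held for 18.7%. The reverse order held for 1 of the 18 and 3 of the 14, against 23.1% of all genes. Among females (1 array each) KO minus Het was negative for Tek (-0.38), Eng (-0.16), Cd93 (-0.22), Kdr (-0.48) and Arhgap29 (-1.01). It was positive there for Pecam1 (0.71), Esam (0.37) and Ackr1 (0.89). Among males (2 arrays each) it was positive for all of these genes. The highest of the 9 arrays was a KO array for 12 of 18 shared and 3 of 14 endothelial members, against 30.4% of all genes. WT replicate 1 read lowest for 6 of the 18 and 2 of the 14, against 16.5%. The shares over all genes, in each comparison, were not matched for level. Mean levels had a median of 5.84 for the shared and 3.83 for the 17 measured mainly endothelial members. KO replicates 1 and 2 had the widest interquartile ranges (2.83 and 2.80) and WT replicate 1 the narrowest (2.22). The part of level and array width in these counts was not tested.

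Genes listed as markers of other cells were read as well, and their readings do not show which cells made the transcripts. In bulk samples, fewer cells of a type and less RNA per cell cannot be told apart. Of 14 further endothelial genes outside the members, 7 passed the background limit on no array: Aplnr, Cav1, Nos3, Col4a1, Esm1, Dll4 and Gja4. The other 7 passed it on at least 1 array: Gpihbp1, Fabp4, Lyve1, Aqp1, Ramp2, Adgrl4 and Ecscr. Of these, 2 passed it on all 9 arrays, Adgrl4 and Aqp1 (5.02 to 6.08). The mean of the list was 4.50 to 4.82 in KO, 4.56 to 4.72 in Het and 4.57 to 4.67 in WT cells. Its brightest member was Adgrl4, an adhesion receptor known from HSCs as well, at 11.32, 11.27 and 11.03 in KO, 10.95, 10.33 and 10.90 in Het and 10.15, 10.21 and 10.04 in WT cells (KO minus WT 1.07, SE 0.235, limma adjusted p = 0.250). The next smallest p values belonged to Gpihbp1 (-0.52) and Ecscr (0.81). Fabp4, a lipid carrier of fat cells and capillaries, was erratic, at 5.18, 2.15 and 1.88 in KO, 2.11, 5.13 and 3.88 in Het and 2.07, 1.72 and 6.25 in WT cells.

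HSC markers also read higher in KO and in Het cells than in WT cells. The mean of 8 measured HSC genes was 7.43 to 8.10 in KO, 7.39 to 7.64 in Het and 6.08 to 7.13 in WT cells. All 8 had a higher mean in KO than in WT cells (median 1.15) and in Het than in WT cells (median 0.57). In KO minus Het, 5 were higher and 3 lower (median 0.11). The mean of the shared members was 6.04 to 6.50 in KO, 5.92 to 6.32 in Het and 5.23 to 5.90 in WT cells, lowest on WT replicate 1 for both lists. Hoxb5 (2.24), Mecom (1.94) and Fgd5 (1.24) had the smallest p of the HSC list, and none passed. For the mainly endothelial members the mean was 3.90 to 3.96 in KO, 3.71 to 3.92 in Het and 3.65 to 3.89 in WT cells. Megakaryocyte genes, 6 of 7 of them over the background limit on some array, averaged 6.46 to 7.11 in KO, 6.08 to 6.93 in Het and 5.90 to 6.19 in WT cells, with 4 higher in KO than in WT cells and 3 lower. The smallest p belonged to Selp (1.52), Vwf (1.55) and Ppbp (1.96), of which Selp and Vwf are also made by endothelium, while Pf4 differed by -0.86, Gp6 by -0.12 and Itga2b by -0.01; none was called. Macrophage genes averaged 4.24 to 4.87 in KO, 3.90 to 4.64 in Het and 4.07 to 4.71 in WT cells, and 5 of 10 passed the limit on no array; Cd68 (1.63), Mertk (0.88) and Csf1r (-0.49) had the smallest p. Stromal genes averaged 3.76 to 3.90 in KO, 3.80 to 4.14 in Het and 3.66 to 4.06 in WT cells, and only Bgn (1.04) and Col1a1 of the 12 passed the limit on any array. Bgn read 6.09 to 9.13 and passed it on all 9, while Col1a1 passed it on Het replicate 2 only (5.04). Genes that the sort excludes averaged 3.51 to 4.06 in KO, 3.76 to 3.93 in Het and 3.76 to 4.14 in WT cells. Of the 8 measured, 3 passed the limit on at least 1 array: Cd48, Flt3 and Itgam. Itgam read 4.46, 4.57 and 6.10 in KO, 4.05, 4.03 and 5.31 in Het and 4.08, 3.84 and 3.57 in WT cells. The smallest p belonged to Flt3 (-1.06), Cd79a (-0.46) and Cd4 (-0.52) beside Itgam, whose difference is given below. The part of HSC content in the differences of the shared members was not tested.

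**Figure D4:**
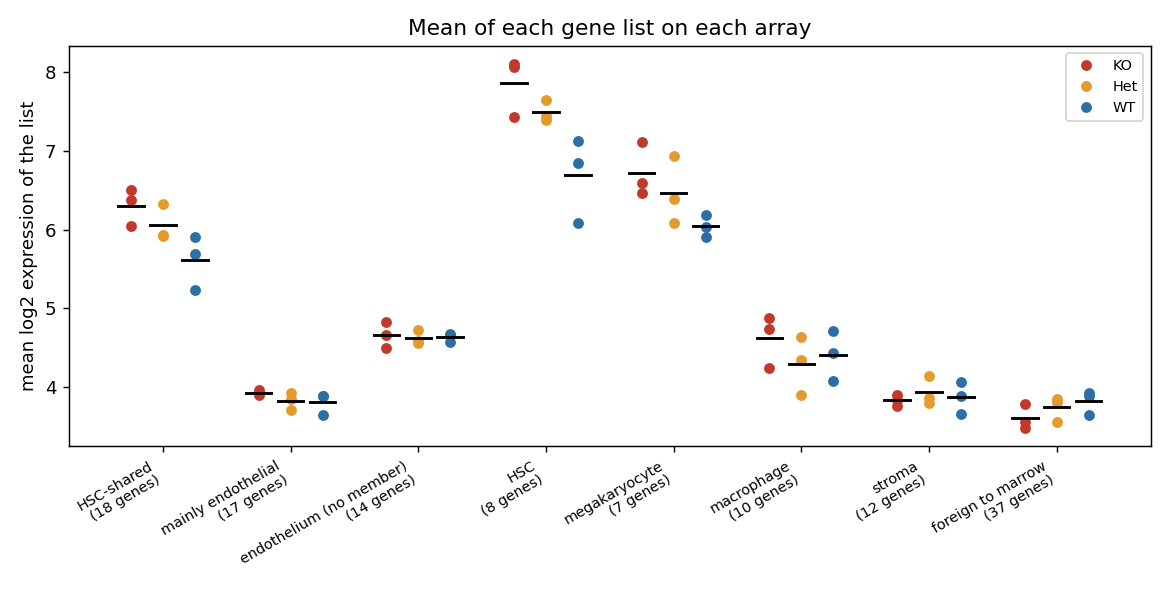
Mean log2 expression (vertical axis) of each gene list on each array, 1 dot per array, with KO, Het and WT side by side and group means as black bars (n = 3 each). The shared members lie higher in KO (6.04 to 6.50) and Het cells (5.92 to 6.32) than in WT cells (5.23 to 5.90). So does the HSC list (KO 7.43 to 8.10, Het 7.39 to 7.64, WT 6.08 to 7.13). The mainly endothelial members and the further endothelial genes lie within a narrow band in all groups.

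Ligands and partners of the members were followed through lists of related genes. Of 7 tested VEGF, angiopoietin and semaphorin ligands none was called in any comparison, with a median KO minus WT difference of -0.13 and a range of -0.32 to 0.25. The smallest p belonged to Sema3a (-0.32), Vegfc (-0.26) and Vegfa (0.22). Of 14 tested genes of BMP and TGF-beta signalling none was called and the median was 0.07; Smad7, an inhibitor of that signalling, differed by 0.77, Smad3 by 0.61 and Tgfbr2 by 0.65 (limma adjusted p = 0.628, 0.648 and 0.671). Of 16 tested junction partners 10 were higher and none was called. Jam2, which binds JAM3, read 6.65, 6.49 and 6.26 in KO, 5.45, 5.70 and 6.00 in Het and 4.15, 5.28 and 4.31 in WT cells, with no overlap between any of the groups (KO minus WT 1.89, SE 0.315, limma adjusted p = 0.101). Heg1, a junction receptor of the cerebral cavernous malformation complex, differed by 1.13 and Ocln, occludin, by 1.12.

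Of 10 tested Slit, Robo and sphingosine 1-phosphate genes 3 were higher. Spns2, which exports sphingosine 1-phosphate from cells, read 8.24, 8.89 and 7.64 in KO, 7.15, 7.69 and 8.03 in Het and 6.11, 7.24 and 6.37 in WT cells (KO minus WT 1.68, SE 0.397, limma adjusted p = 0.274), while S1pr5 differed by -0.62 and Slit3 by -0.29. Of 12 integrin and selectin partners 8 were higher. Itga5, the fibronectin receptor chain, differed by 1.09, Itgb2, a chain of the leukocyte integrins that bind ICAMs, by -0.99, and Itgam by 1.21. None of these was called. Of 20 tested transcription factors of blood and endothelium 14 were higher in KO cells and 1 was called. Sox18, an endothelial SoxF factor, read 6.91, 7.23 and 6.01 in KO, 4.56, 5.19 and 4.91 in Het and 4.08, 3.61 and 3.69 in WT cells (2.92, SE 0.330, limma adjusted p = 0.0289). That call did not hold in every fit. No gene was called with terms for replicate number, with a term for interquartile range, or without WT replicate 1 or KO replicate 1. Mef2c differed by 0.73 and Lmo2 by 0.87, neither past the threshold.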

How the data were processed

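Per the labels' protocols, RNA of sorted HSCs was amplified with a NuGEN Ovation Pico kit and read on the Affymetrix Mouse Gene 2.0 ST platform. The deposited values are log2 summaries per probe set that the authors made with RMA, per the submitters' processing notes; neither its version nor a genome build is stated. RMA compresses differences of dim transcripts. The number of arrays limits the precision: the median SE of KO minus WT was 0.298.

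Of 41345 probe sets 23521 carried 1 symbol, 1814 several, and 16010 were not listed. Symbols were updated through gene IDs (23328 matched). Testing was limited to genes whose mean reached the 25th percentile (3.31), which left 16636 and removed the members Nrp1, Sele and Clec14a. limma 3.58.1 (lmFit, eBayes; R 4.3.3) was fitted over all 9 arrays with a mean per genotype, and Benjamini-Hochberg adjusted p-values, two-sided, cover all genes tested. On simulated data the fit called 14.8% of true KO minus WT differences of size 1 and 74.4% of those of size 2. The simulation drew independent normal noise for each gene and array and shifted a small set of genes in KO arrays only. Differences in width between arrays were not simulated, so these rates need not hold for the real arrays. A member that was not called may still differ. Replicates are called biological by the labels. Same-numbered arrays of different genotypes did not deviate together (r of -0.185 to 0.229), so no pairing was used.

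Members, classes and lists were chosen with earlier results of these data known. Members named with tests were, by rule, the 4 with the smallest p in each direction per comparison, those at an unadjusted p under 0.05, and Tek, Tie1, Kdr, Cdh5, Pecam1, Emcn and Esam; from other lists, the 3 with the smallest p in KO minus WT. The p under 0.05 part of the rule was added after the values were seen, as was the naming of Kit, Cd48 and Fabp4 for their levels. Alternatives covered the filter, probe set choice, normalization, added terms, weights and left-out arrays.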

Additional observations from a re-analysis of the deposited data

How the results depend on the processing

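Under 22 alternatives no member was called in any comparison, except Ackr1 in KO minus WT with array weights (1 member, 1.93, adjusted p = 0.0422) and Arhgap29 without KO replicate 3 (0 to 1 members over the leave-one-out fits). The number of all genes called in KO minus WT was 7, and 4 with the filter at the median level, 3 quantile normalized again, 0 with the replicate block, 3 with sex as a term, 0 with a term for interquartile range, 24 by array weights, 1 with only the 2 groups compared, 2 without both WT replicate 1 and KO replicate 3, and 0 to 15 when 1 array was dropped. Dropping KO 3 gave 15, Het 3 gave 3, WT 3 or KO 2 gave 2, WT 2 or Het 1 gave 1, and WT 1 or KO 1 gave 0. For Het minus WT it was 0, and 6 over all probe sets without a filter. In the replicate block fit no member was called; the samples share only a number.

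The medians of the mainly endothelial members became 1.59 (KO minus WT), 1.12 (Het minus WT) and 0.48 (KO minus Het) with the filter at the median level. That filter keeps only Kdr and Arhgap29 of the 14, which pass it through their KO and Het arrays, so these values support nothing about the list. Of 1359 alternative values of 63 differences of named members, 1328 kept their direction and 31 did not, the largest of these at a size of 0.39; the cause was not tested. Mcam in KO minus WT became -0.04 with arrays centred, -0.06 with sex, -0.09 with array weights, -0.23 without both WT 1 and KO 3, and -0.19 to 0.16 leaving out 1 array. Emcn in Het minus WT became -0.09 with the interquartile range, -0.22 with array weights, -0.25 without both, and -0.39 to 0.63 leaving out 1 array. Egfl7 in Het minus WT became 0.06 with array weights, 0.11 without both, and -0.17 to 0.13 leaving out 1 array. With array weights Plvap and Tie1 in KO minus Het became 0.02 and 0.08, Vcam1 became 0.02 quantile normalized again, and Eng became -0.02 with the interquartile range. Leaving out 1 array, the ranges were -0.38 to 0.01 for Cdh5 and -0.08 to 1.06 for Tie1 in KO minus WT, -0.08 to 0.3 for Ackr1 in Het minus WT, and -0.29 to 0.11 for Plvap, -0.31 to 0.06 for Vcam1, -0.25 to 0.26 for Icam2 and -0.36 to 0.07 for Tie1 in KO minus Het. A genotype by sex term called 0 members in each comparison (limma, smallest adjusted p = 0.521), with 3, 6 and 5 at an unadjusted p under 0.05 in KO minus WT, Het minus WT and KO minus Het. Readings under the background limit may carry little signal, which limits Vcam1, Podxl and the 14 mainly endothelial members that stayed under it on all arrays, the order of the Podxl and Plvap groups included.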
